A study of Mus musculus with 7 samples.

Results

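A set of 10 imprinted genes, grouped as imprinted growth genes of muscle, was followed in C2C12 cells, a mouse muscle line, after exposure to exosomes. They were H19, Meg3, Rian, Dlk1, Peg3, Mest, Grb10, Plagl1, Ndn and Zim1. Members were taken by gene name among the 39429 distinct non-control probes of a 1-colour Agilent mouse array, which gave 20 probes for 9 of the 10 genes, and no probe carried the name Rian. The recipient cells received exosomes for 24 h in serum-free medium. EXO-Post BSA exosomes (4 arrays) came from C2C12 cells pre-treated with the albumin vehicle, and EXO-Post Palm exosomes (3 arrays) from C2C12 cells pre-treated with 0.5 mmol/l palmitate bound to the same albumin. Donor cells had been off palmitate for 9 h when their exosomes were taken. The labels call the recipient cells myoblasts, whereas the study's methods describe myotubes. Of the listed markers, 28 of 28 for myotubes, 12 of 16 for myoblasts and 18 of 20 for dividing cells could be tested. On the log2 scale given below, the tested myotube markers had a mean level of 4.60 to 4.70 on the EXO-Post BSA arrays. The tested myoblast markers had 0.35 to 0.57 there, and Myf5 and Twist1 of that list were not well above background on any array. Which of the 2 descriptions holds was not tested. The source label names C2C12 for all 7 samples, but the cell line label counts up from C2C12 to C2C18 over them, and all were taken as C2C12.

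An imprinted gene is transcribed from only the maternal or only the paternal copy, and which copy is active is set by DNA methylation laid down in the germ cells. H19, Meg3, Rian, Grb10 and Zim1 are mainly active on the maternal copy, and Dlk1, Peg3, Mest, Plagl1 and Ndn on the paternal copy. Several of them lie in clusters, so that H19 shares its enhancers with the growth factor gene Igf2, Dlk1 shares a domain with the noncoding RNAs Meg3 and Rian, and Peg3 and Zim1 are close neighbours. In muscle, H19 is strongly transcribed as myoblasts differentiate.

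The probes for H19 and Ndn are shown here because H19 was detected on every array and by name leads the group, and Ndn is the only member probe with all EXO-Post Palm arrays above all EXO-Post BSA arrays. H19 A_55_P1961127 lies at chr7:149761492-149761551 and H19 A_55_P1961125 at chr7:149762417-149762476, both on the minus strand of mm9 in the array annotation. Ndn A_52_P451644 lies at chr7:69493847-69493906 on the plus strand of mm9.
H19 A_55_P1961127: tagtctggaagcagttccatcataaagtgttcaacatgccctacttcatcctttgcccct
H19 A_55_P1961125: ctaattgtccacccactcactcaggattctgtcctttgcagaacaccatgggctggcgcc
Ndn A_52_P451644: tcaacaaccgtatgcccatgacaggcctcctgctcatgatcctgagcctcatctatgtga

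The 250 bases before the start sites of Mest, Peg3, Zim1 and Ndn, the members with the lowest or highest fold changes, are shown because imprints are carried by methylated CG dinucleotides, printed in capitals. They were taken from RefSeq on GRCm38.p6, where 9 of the 10 members matched. Mest has a start with the window chr6:30733256-30733505 and another with chr6:30737800-30738049, both on the plus strand. Peg3 has chr7:6730420-6730669 and Zim1 chr7:6696433-6696682, both on the minus strand, and Ndn has chr7:62348027-62348276 on the plus strand.
Mest, upstream start: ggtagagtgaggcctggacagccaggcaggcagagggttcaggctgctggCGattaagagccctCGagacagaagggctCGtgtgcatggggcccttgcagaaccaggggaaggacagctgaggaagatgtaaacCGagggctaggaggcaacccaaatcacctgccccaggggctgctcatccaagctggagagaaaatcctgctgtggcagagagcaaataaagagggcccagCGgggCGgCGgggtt
Mest, downstream start: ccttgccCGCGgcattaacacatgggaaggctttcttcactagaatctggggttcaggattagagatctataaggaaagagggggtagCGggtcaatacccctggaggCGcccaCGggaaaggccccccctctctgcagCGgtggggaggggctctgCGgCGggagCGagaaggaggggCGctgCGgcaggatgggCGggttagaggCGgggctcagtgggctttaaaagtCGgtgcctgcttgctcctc
Peg3: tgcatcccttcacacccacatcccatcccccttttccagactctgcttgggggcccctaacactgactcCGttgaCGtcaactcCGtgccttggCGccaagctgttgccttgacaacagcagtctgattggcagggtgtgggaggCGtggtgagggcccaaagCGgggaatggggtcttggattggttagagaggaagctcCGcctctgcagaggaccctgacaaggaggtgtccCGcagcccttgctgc
Zim1: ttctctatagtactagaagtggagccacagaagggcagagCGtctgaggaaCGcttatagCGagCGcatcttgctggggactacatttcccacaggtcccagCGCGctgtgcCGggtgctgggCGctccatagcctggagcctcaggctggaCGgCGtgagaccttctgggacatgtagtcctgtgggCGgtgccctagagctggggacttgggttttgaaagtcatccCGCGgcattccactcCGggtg
Ndn: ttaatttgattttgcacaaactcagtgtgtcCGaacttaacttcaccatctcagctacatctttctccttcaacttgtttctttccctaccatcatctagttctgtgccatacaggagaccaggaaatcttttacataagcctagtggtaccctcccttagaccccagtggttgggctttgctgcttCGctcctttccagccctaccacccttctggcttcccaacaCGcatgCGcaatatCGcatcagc

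The upstream Mest window held 7 CG dinucleotides and the downstream one 14, against a median of 6 over all 32851 promoter windows of the same length. Peg3 had 8, Zim1 14 and Ndn 5. A window with 14 or more CG was found in 29.4% of all windows, and 1 with 5 or more in 55.6%. The letters GGGGCCCC, the same on both strands, occurred once before Peg3 and in 0.889% of all windows. The letters CAGCTG, an E-box form bound by the myogenic factor MyoD and also the same on both strands, occurred once before the upstream Mest start and in 13% of all windows. These counts describe letters, and methylation was not measured.

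**Figure D1:**
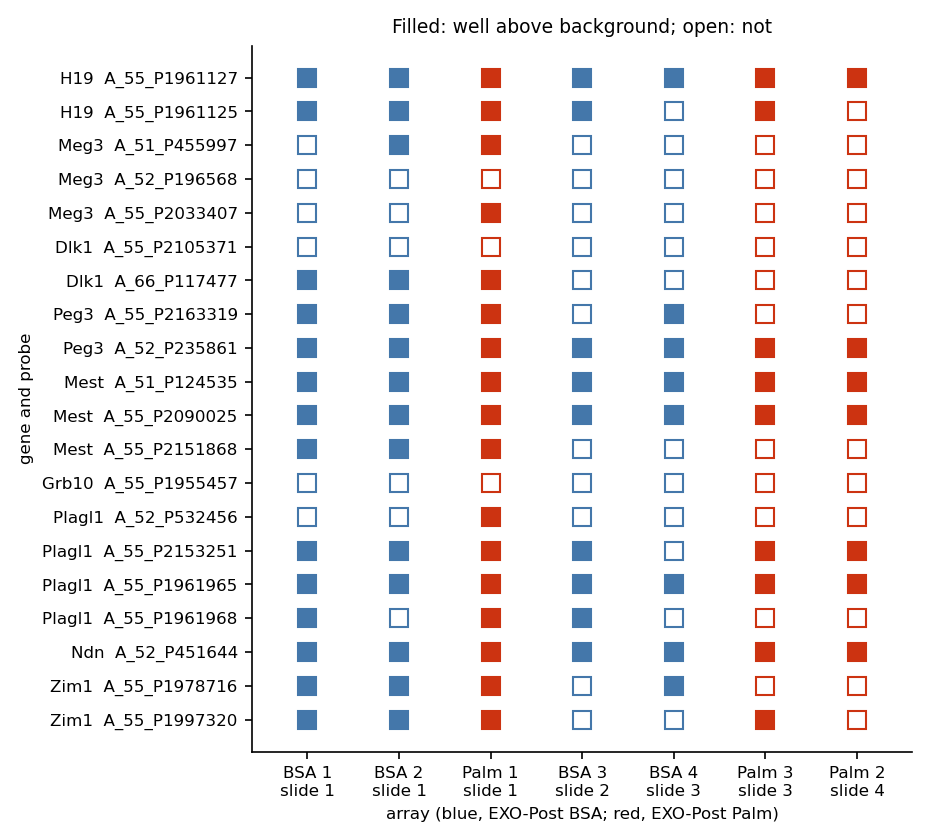
Detection of the 20 probes (rows) on the 7 arrays (columns, ordered by slide), with filled squares for a probe well above background and open squares for one that was not. The 3 arrays of slide 1, on the left, hold most of the filled squares among the dim probes, and 6 probes are filled in every column.

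Of the 20 probes, 6 were well above background on all 7 arrays, 3 on none and 11 on some. The 6 were H19 A_55_P1961127, Peg3 A_52_P235861, Mest A_51_P124535 and A_55_P2090025, Plagl1 A_55_P1961965, and Ndn A_52_P451644. All 11 partly detected probes were detected in EXO-Post Palm replicate 1, and 5 of them were not detected outside slide 1, which held that array with EXO-Post BSA replicates 1 and 2. The share of all probes well above background was 62.0% to 70.3% on slide 1 and 48.5% to 54.1% on the other 4 arrays. Detection of the dim members thus moved with the slide, and its part in their values was not tested. Probes were tested if 75% or more of the arrays in either group had them well above background, which 10 member probes of 6 genes met. These were 2 probes each for H19, Peg3, Mest and Plagl1 and 1 each for Ndn and Zim1. H19 A_55_P1961125, Peg3 A_55_P2163319 and Zim1 A_55_P1978716 met the filter through the control arrays alone, so their lower values after EXO-Post Palm are not independent of it. Meg3, Dlk1 and Grb10 had probes but none that could be tested.

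None of the 10 tested member probes passed a Benjamini-Hochberg adjusted p of 0.05 in limma, and 0.533% of the 21589 tested probes did. At an unadjusted p under 0.05, limma found 5 of the 10, and 10.0% of all tested probes met that mark. The methods' t-test found none of the 10 at its own unadjusted threshold. Of the 5, Mest (both probes), Peg3 A_52_P235861 and Zim1 A_55_P1978716 were below the controls, as were 5.19% of all tested probes at that mark, and Ndn was above, as were 4.85%. Zim1 is 1 of those that met the filter through the controls alone. The median log2 fold change was -0.32 over the 10 member probes and -0.02 over all tested probes. The member median includes H19 A_55_P1961125, Peg3 A_55_P2163319 and Zim1 A_55_P1978716. These met the filter through the controls alone, so that median is not independent of the filter. Values below are log2 signals after subtracting the 75th percentile of each array, so 0 is that percentile, and a fold change is EXO-Post Palm minus EXO-Post BSA on that scale. In total RNA, fewer cells transcribing a gene and less RNA per cell cannot be told apart.

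**Figure D2:**
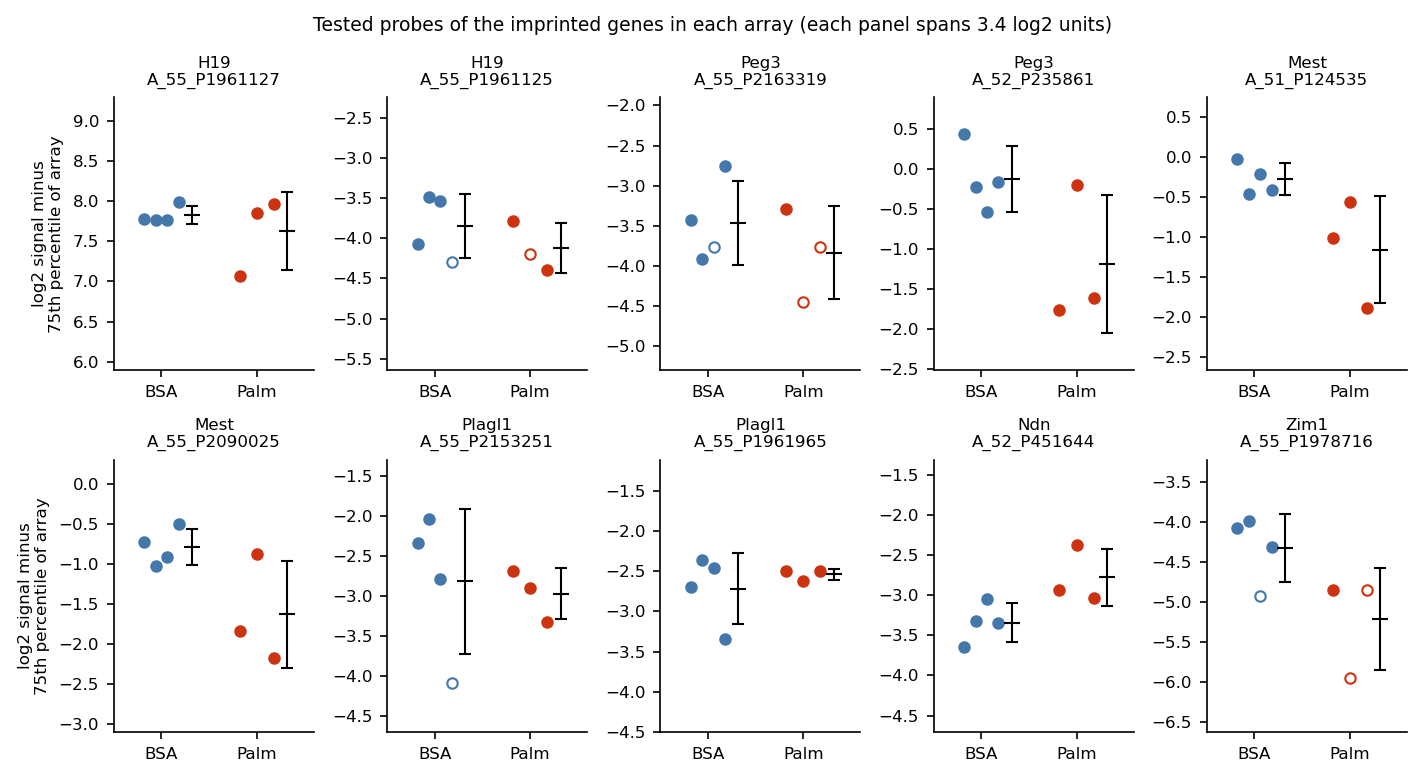
Log2 signal (vertical axis, relative to the 75th percentile of the array) of the 10 tested member probes, with blue points for the 4 EXO-Post BSA arrays, red points for the 3 EXO-Post Palm arrays, open points for arrays not well above background, and bars for mean ± SD. Red points lie below all blue points for Mest A_51_P124535 and above all blue points for Ndn, and the groups overlap in the other panels.

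Among the noncoding RNAs, H19, the maternally expressed transcript that also carries the precursor of miR-675, had 2 tested probes with overlapping groups. H19 A_55_P1961127 had log2 signals of 7.78, 7.77, 7.76 and 7.99 in EXO-Post BSA replicates 1 to 4, and of 7.07, 7.85 and 7.97 in EXO-Post Palm replicates 1 to 3. Palm replicate 1 was the only array below the others, and the remaining 2 treated arrays lay within the control range. The fold change was -0.20 (SE 0.256, 95% interval -0.78 to 0.39, limma adjusted p = 0.833), so a loss larger than 0.78 or a gain larger than 0.39 lies outside the interval. It was -0.70 within slide 1, which holds that array, -0.02 within slide 3 and -0.41 with slide as a block (limma adjusted p = 0.671). It was 0.08 without EXO-Post Palm replicate 1, 0.06 after normexp correction with quantile normalisation on the median signal, -0.05 after quantile normalisation alone, and 0.06 in the authors' processed values. H19 A_55_P1961125 had log2 signals of -4.07, -3.49, -3.54 and -4.30 in the controls and of -3.78, -4.20 and -4.39 after EXO-Post Palm. The groups overlapped, with a fold change of -0.27 (SE 0.276, limma adjusted p = 0.778) that became 0.07 in the median signals without background subtraction.

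Meg3, a maternally expressed long noncoding RNA of the Dlk1 domain, was close to background at all 3 of its probes. Meg3 A_51_P455997 was well above background only in EXO-Post BSA replicate 2 and EXO-Post Palm replicate 1, at log2 signals of -5.43 and -5.22. Meg3 A_55_P2033407 was detected only in EXO-Post Palm replicate 1, at -5.08, and Meg3 A_52_P196568 on no array. No fold change is given for Meg3, because the arrays that detected it belong to slide 1. The neighbouring noncoding transcript Mirg was detected on 2 arrays at 1 probe and on none at the other.

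Dlk1, a membrane-bound Notch-like ligand of muscle and fat precursors, was likewise measurable on slide 1 alone. Dlk1 A_66_P117477 had log2 signals of -4.58 and -4.28 in EXO-Post BSA replicates 1 and 2 and of -3.75 in EXO-Post Palm replicate 1. On the arrays of the other slides it read -6.22 and -5.92 in the controls and -5.99 and -5.73 after EXO-Post Palm, all not well above background. Dlk1 A_55_P2105371 was not detected on any array. The arrays that detected Dlk1 A_66_P117477 thus all belonged to slide 1, which holds both groups. EXO-Post Palm minus EXO-Post BSA was 0.68 within slide 1 and 0.18 within slide 3, the latter from signals not well above background. The parts of slide and of exosome treatment in these values were not tested. Dio3, the thyroid hormone-inactivating enzyme at the other end of that domain, was detected on 1 control array only.

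Mest, a paternally expressed gene for a protein of the alpha/beta-hydrolase fold, had the member probe whose groups stood apart downwards. Mest A_51_P124535, printed 10 times on the array, had log2 signals of -0.03, -0.47, -0.21 and -0.41 in the controls. After EXO-Post Palm it read -1.01, -0.57 and -1.89, so every treated array lay below every control array, though replicate 2 by only a small step. Such a downward separation was seen in 5.87% of all tested probes. The mean was -0.28 ± 0.20 (SD, n = 4) in the controls and -1.15 ± 0.67 (SD, n = 3) after EXO-Post Palm. The fold change was -0.88 (SE 0.316, 95% interval -1.59 to -0.16), a signal 0.545 times that of the controls, with a limma adjusted p of 0.404. The two-sided exact permutation p was 0.0286, the smallest that 4 against 3 arrays can give. On 2 control arrays, 3 of its spots in all were flagged as outliers and left out of the average.

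Mest A_55_P2090025, on another stretch of the transcript, gave log2 signals of -0.73, -1.02, -0.91 and -0.50 in the controls and of -1.84, -0.88 and -2.17 after EXO-Post Palm. Here EXO-Post Palm replicate 2 lay inside the control range and the other 2 treated arrays below it. The fold change was -0.84 (SE 0.318, 95% interval -1.57 to -0.12, limma adjusted p = 0.430). Both probes ordered the treated arrays alike, with replicate 2 highest and replicate 3 lowest. Within slide 1 the difference was -0.76 and -0.97 for the 2 probes, and within slide 3, with 1 array of each group, -1.47 and -1.67. Without EXO-Post Palm replicate 3 the fold changes were -0.51 and -0.58. For Mest A_51_P124535 it was -0.58 after normexp correction with quantile normalisation and -0.57 without background subtraction. The third probe, Mest A_55_P2151868, was well above background on the 3 arrays of slide 1 only, at -4.72 and -3.99 in the controls and -4.37 after EXO-Post Palm.

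Copg2, the convergent neighbour of Mest, had fold changes of 0.02 (SE 0.382, limma adjusted p = 0.994) and 0.16 (SE 0.476, limma adjusted p = 0.936) at its 2 probes. The carboxypeptidase gene Cpa4 of the same domain had -0.94 (SE 0.434, limma adjusted p = 0.517). The 4 tested neighbours of Mest had a median of -0.33 and none passed the test, nor did any reach an unadjusted p under 0.05 in limma. Among them, Cpa1 met the probe filter through the control arrays alone.

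Grb10, a maternally expressed adaptor that binds the insulin and IGF1 receptors and dampens their signal, had 1 probe, which was not well above background on any array. Its level here is therefore unknown beyond that bound. The neighbouring gene for the AAA ATPase Fignl1, on the other hand, was measurable and lay higher after EXO-Post Palm. Fignl1 A_55_P2011937 had log2 signals of -1.24, -0.61, -1.58 and -0.78 in the controls and of 0.28, -0.15 and 0.52 after EXO-Post Palm, a fold change of 1.27 (SE 0.292, limma adjusted p = 0.147). The other probe of Fignl1, A_55_P2110245, named after its value was seen, passed the test with 1.65 (SE 0.270, limma adjusted p = 0.0436), and with 1 array left out it ran from 1.41 to 1.78 and passed only without EXO-Post Palm replicate 2. The call was lost under a slide block (1.81, limma adjusted p = 0.0632), a replicate block (1.66, limma adjusted p = 0.163), normexp with quantile normalisation (1.58, limma adjusted p = 0.0589), centring on the array median (1.59, limma adjusted p = 0.0518) or no probe filter (1.65, limma adjusted p = 0.220). It was also lost in the authors' processed values (limma adjusted p = 0.0618) and by the methods' t-test after adjustment. Ddc, the aromatic amino acid decarboxylase gene next to Grb10, had -0.52 (SE 0.228, limma adjusted p = 0.497).

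Of the members, 3 encode zinc-finger proteins. Peg3, a paternally expressed DNA-binding regulator of cell survival that is also used to mark muscle stem and interstitial cells, had 2 tested probes. Peg3 A_52_P235861 had log2 signals of 0.43, -0.23, -0.54 and -0.17 in the controls. After EXO-Post Palm it read -1.76, -0.20 and -1.61, so replicates 1 and 3 were well under the controls and replicate 2 was within them. The fold change was -1.06 (SE 0.405, 95% interval -1.98 to -0.14), a signal 0.479 times that of the controls, with a limma adjusted p of 0.434 and a two-sided exact permutation p of 0.0857. It was -1.86 within slide 1 and -1.45 within slide 3. With slide as a block it was -1.68 (limma adjusted p = 0.0932). Leaving out EXO-Post Palm replicate 2 gave -1.56 (limma adjusted p = 0.0713), whereas leaving out replicate 1 gave -0.78 (limma adjusted p = 0.525) and replicate 3 -0.85 (limma adjusted p = 0.773). It was -0.67 after normexp correction with quantile normalisation and -0.69 without background subtraction. The other Peg3 probe, A_55_P2163319, was well above background on 3 control arrays and on EXO-Post Palm replicate 1. It had -0.37 (SE 0.361, 95% interval -1.19 to 0.46, limma adjusted p = 0.774), and its slide 1 difference was 0.38, opposite in sign to that of the first probe.

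Zim1, the maternally expressed neighbour of Peg3, was dim. Zim1 A_55_P1978716 had log2 signals of -4.08, -3.99, -4.93 and -4.31 in the controls and of -4.85, -5.95 and -4.85 after EXO-Post Palm. All 3 treated arrays lay below 3 of the controls, and EXO-Post BSA replicate 3 lay among them. It was well above background on 3 control arrays but on only 1 treated array, so the fold change of -0.89 (SE 0.349, 95% interval -1.68 to -0.09, limma adjusted p = 0.446) rests partly on signals near background. It was -0.42 after normexp correction with quantile normalisation and -0.38 without background subtraction, both on the median signal. Zim1 A_55_P1997320 was detected on 4 arrays, EXO-Post Palm replicates 1 and 3 among them, at -4.81 and -3.93. Zim3 of the same cluster had log2 signals from -5.31 to -1.79 in the controls, too wide a spread for the difference of -0.70 (SE 0.911) to be read, and Usp29 was detected on 3 arrays only.

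Plagl1, a paternally expressed zinc-finger factor that arrests the cell cycle and acts on other imprinted genes, did not separate the groups. Plagl1 A_55_P1961965 had log2 signals of -2.70, -2.36, -2.46 and -3.34 in the controls and a narrow -2.50, -2.62 and -2.49 after EXO-Post Palm. Its fold change was 0.18 (SE 0.266, 95% interval -0.43 to 0.79, limma adjusted p = 0.856), and -0.03 without EXO-Post BSA replicate 4, the lowest control. Plagl1 A_55_P2153251 had -2.34, -2.04, -2.79 and -4.09 in the controls and -2.69, -2.90 and -3.32 after EXO-Post Palm, with EXO-Post BSA replicate 4 again lowest and not well above background. Its fold change was -0.16 (SE 0.457, 95% interval -1.20 to 0.88, limma adjusted p = 0.935), and 0.04 with slide as a block. The 2 remaining Plagl1 probes, A_55_P1961968 and A_52_P532456, share a run of 26 bases and were detected on 3 arrays and on 1 array. In the Plagl1 domain, all 4 tested neighbours had fold changes between -0.40 for Utrn and 0.24 for Stx11.

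Ndn, the paternally expressed gene for the MAGE-family protein necdin, which binds E2F factors and favours exit from the cell cycle, was the member that lay higher. Ndn A_52_P451644, whose sequence is given above, had log2 signals of -3.65, -3.32, -3.05 and -3.34 in the controls and of -2.93, -2.37 and -3.03 after EXO-Post Palm. The groups did not overlap, but the lowest treated array and the highest control array were nearly level. An upward separation of this kind was seen in 5.40% of all tested probes. The fold change was 0.57 (SE 0.245, 95% interval 0.01 to 1.12), a signal 1.48 times that of the controls, with a limma adjusted p of 0.493 and a two-sided exact permutation p of 0.0571. It was 0.56 within slide 1 and 0.31 within slide 3. It was 0.14 after normexp correction with quantile normalisation, 0.18 without background subtraction, both on the median signal, and 0.19 in the authors' processed values. Of its imprinted neighbours, Magel2 was detected on 3 arrays and was not tested, and Mkrn3, Ube3a, Peg12 and Atp10a had fold changes from -0.33 to 0.38 that did not pass the test. Mkrn3, the lowest of these, met the probe filter through the control arrays alone.

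**Figure D3:**
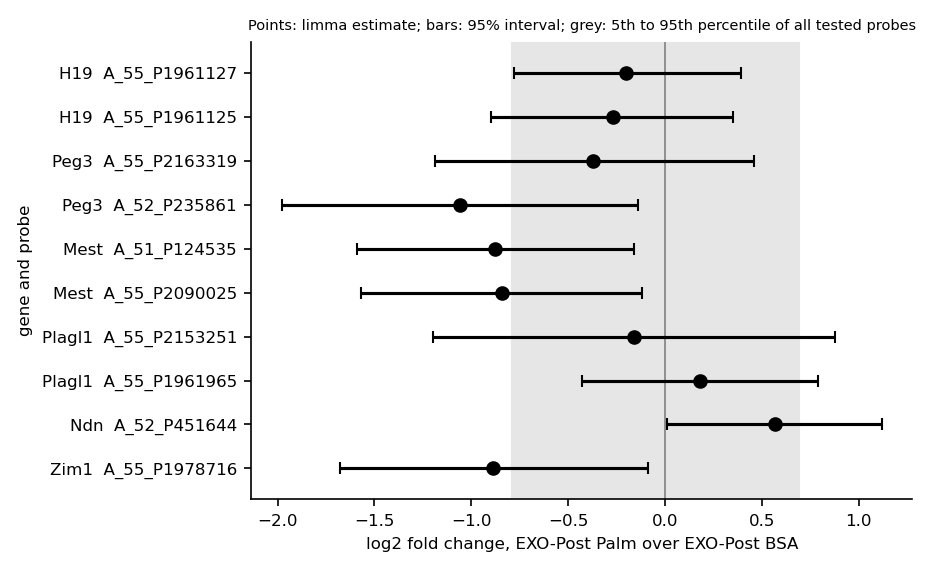
Log2 fold change of EXO-Post Palm over EXO-Post BSA (horizontal axis) for the 10 tested member probes, with points for the limma estimate, bars for its 95% interval and a grey band from the 5th to the 95th percentile of all tested probes, -0.79 to 0.69. The points of Peg3 A_52_P235861, Zim1 and both Mest probes lie below the band, where Zim1 was tested through its control arrays alone, and the interval of Ndn starts at 0.01.

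Igf2, the growth factor gene that shares its enhancers with H19, had log2 signals of -1.56, -1.56, -1.60 and -1.88 in the controls and of -2.88, -1.98 and -3.60 after EXO-Post Palm, a fold change of -1.17 (SE 0.352, limma adjusted p = 0.293) without overlap of the groups. Without EXO-Post Palm replicate 2 it was -1.59 and passed the test (limma adjusted p = 0.0452), without replicate 3 it was -0.78 (limma adjusted p = 0.687), and it was -0.75 both after normexp correction with quantile normalisation and without background subtraction. These values stand beside H19 A_55_P1961127, for which the treated replicates 2 and 3 were within the control range. Igf2r, the receptor that clears IGF2, had 0.29 (SE 0.239, limma adjusted p = 0.728) and Cdkn1c, a CDK inhibitor of the next imprinted domain on the same chromosome arm, -0.22 (SE 0.382, limma adjusted p = 0.879). Of 7 tested receptors, ligands and partners of the IGF and insulin system none passed, limma found 1 lower at an unadjusted p under 0.05, and the median was -0.09.

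Outside the members, 54 of 56 further imprinted genes had a probe and 31 could be tested with 1 probe each. None passed limma's adjusted threshold, 18 were above 0 and 13 below, and their median was 0.02. At an unadjusted p under 0.05, limma found 1 higher and 4 lower, and the methods' t-test found 1 higher and 5 lower. The lowest were Igf2 and Ins2, with -0.74 (SE 0.218, limma adjusted p = 0.282) for the insulin gene next to it. The highest were Nap1l4, a histone chaperone gene, with 0.71 (SE 0.267, limma adjusted p = 0.431) at its probe with the higher mean, against -0.42 (SE 0.295, limma adjusted p = 0.678) at its other tested probe, and Kcnq1ot1, the noncoding antisense transcript of the Cdkn1c domain, with 0.43 (SE 0.368, limma adjusted p = 0.740). The other Kcnq1ot1 probe had a difference of -0.75, but was well above background on slide 1 alone and was not tested. A further 12 of these imprinted genes, among them Phlda2, Rtl1 and Calcr, were not well above background on any array. Genes of the H19 neighbourhood split evenly, 8 above 0 and 8 below. In the Dlk1-Meg3-Rian neighbourhood 4 of 5 were below 0, with a median of -0.40 against -0.02 over all tested probes. The lowest of them, Begain, met the probe filter through the control arrays alone. Ppp2r5c, counted at -0.35 (SE 0.213), had 0.17 (SE 0.418) and -0.09 (SE 0.569) at its other tested probes. Yy1, a zinc-finger factor gene beside that domain, had -0.52 (SE 0.262, limma adjusted p = 0.559).

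Of 18 tested factors that set or keep imprints, none passed the adjusted threshold. At an unadjusted p under 0.05 limma found 2 higher, Uhrf1 and Ctcf, and none lower. Ctcf, named after its value was seen, had a fold change of 0.63 (SE 0.258, limma adjusted p = 0.471). Uhrf1, which recruits the maintenance methyltransferase to replicating DNA, had a fold change of 1.1 (SE 0.333, limma adjusted p = 0.294). All 3 treated arrays were above all controls, but the lowest treated array (-0.63) and the highest control (-0.66) were nearly level. Ezh2, the histone H3 methyltransferase of Polycomb, did not reach the unadjusted mark, with 0.75 (SE 0.408, limma adjusted p = 0.593). That difference rests partly on EXO-Post BSA replicate 4, at -2.36. The other controls read -0.85, -0.81 and -0.57, and the treated arrays -0.46, -0.31 and -0.41. Arid4a had -0.30 (SE 0.222, limma adjusted p = 0.691) at the probe with the highest mean and 0.48 (SE 0.383, limma adjusted p = 0.714) at another tested probe.

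**Figure D4:**
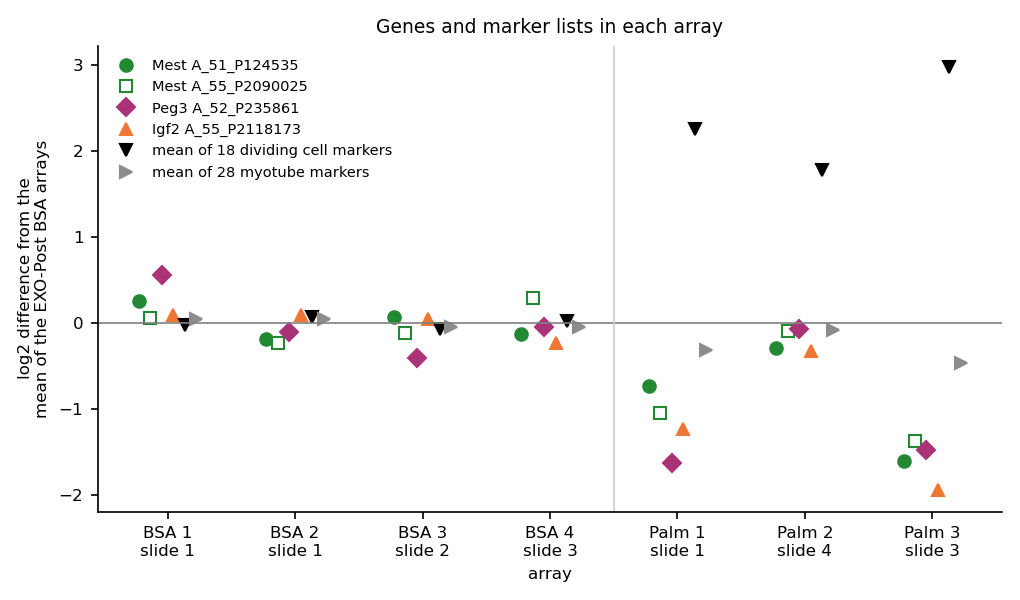
Log2 difference of each array from the mean of the EXO-Post BSA arrays (vertical axis) for both well detected Mest probes, Peg3 A_52_P235861, Igf2, and the means of 18 dividing cell markers and of 28 myotube markers, with arrays on the horizontal axis. In EXO-Post Palm replicate 2, the only array of slide 4, Mest, Peg3 and Igf2 are nearest to the controls and the dividing cell markers are raised least. Ndn and Zim1 A_55_P1978716, which are not shown, were furthest from the controls in that array.

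Markers of dividing cells and of other cell identities are given beside these values. All 18 tested dividing cell markers had fold changes above 0, with a median of 2.38, and all were higher at an unadjusted p under 0.05 in limma. Of them, 14 passed the adjusted threshold, as did 0.533% of all tested probes. Ccnb1, the mitotic cyclin B1 gene, rose by 2.76 (SE 0.282, limma adjusted p = 0.0108), by 2.43 without EXO-Post Palm replicate 3 (limma adjusted p = 0.0491), and was at 2.82 without replicate 1 (limma adjusted p = 0.0550). It did not pass with a replicate block (limma adjusted p = 0.107) or with no probe filter (limma adjusted p = 0.0741), nor by the methods' t-test after adjustment, and under each of these 0 genes of the list passed. With 1 array left out the count past the adjusted threshold was 8 to 10 without a control, 1 without EXO-Post Palm replicate 1, 1 without replicate 3 and 16 without replicate 2. The median stayed between 1.94 and 2.68. The mean log2 level of the list was -1.59 to -1.45 in the controls and 0.74, 0.26 and 1.46 in EXO-Post Palm replicates 1 to 3. Replicate 2 was thus lowest and replicate 3 highest, the reverse of the order of Mest and Igf2 in the same arrays. Peg3 A_52_P235861 did not follow it, with replicate 1 lowest, nor did Zim1 A_55_P1978716, with replicate 2 lowest. Ndn, although its fold change was above 0, had the order of Mest and Igf2, with replicate 2 highest and replicate 3 lowest. These orders were not tested. Myotube markers had no gene past the adjusted threshold, with 25 of 28 below 0 and a median of -0.19, and their mean level was 4.60 to 4.70 in the controls and 4.34, 4.57 and 4.19 in the treated arrays. Of the myotube markers, 2 were lower at an unadjusted p under 0.05 in limma and none higher. The part of cell makeup in the values of the imprinted genes was not tested.

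Among 12 tested myoblast markers none passed, limma found 1 lower at an unadjusted p under 0.05, and the median was -0.02. Of these 12, 5 were above 0 and 7 below. The Notch target gene Heyl was lowest, at -1.06 (SE 0.318, limma adjusted p = 0.290). Vcam1 was highest, at 0.51 (SE 0.228, limma adjusted p = 0.504), against -0.15 (SE 0.441, limma adjusted p = 0.935) at its other probe. Among 7 tested fibroblast and adipocyte markers none passed the adjusted threshold and 2 were higher at an unadjusted p under 0.05 in limma, with a median of 0.35. Of the 7, 5 were above 0 and 2 below. The highest were Lum, which encodes the matrix proteoglycan lumican, with 1.45 (SE 0.297, limma adjusted p = 0.105), and Cebpa, a transcription factor of fat cells, with 1.28 (SE 0.319, limma adjusted p = 0.188). The lowest were Col3a1 with -0.35 (SE 0.203, limma adjusted p = 0.615) and Pparg with -0.09 (SE 0.229, limma adjusted p = 0.928). A further 5 genes of the list could not be tested. The mean level of this list was 0.19 to 0.57 in the controls and 0.73 to 1.11 in the treated arrays. Tcf21 of that list was not well above background on any array.

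**Figure D5:**
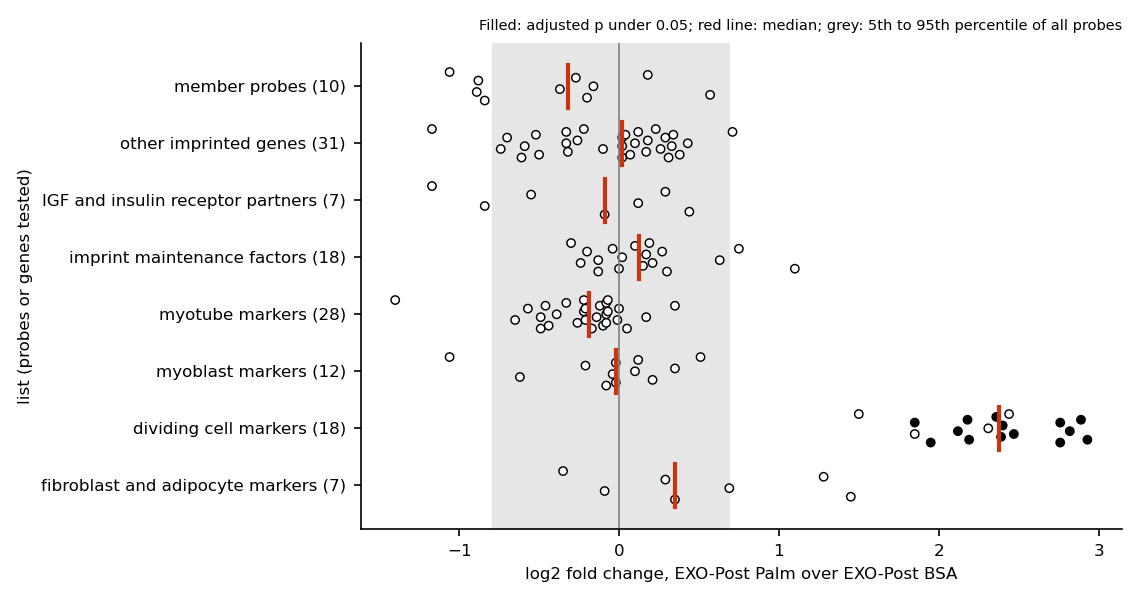
Log2 fold change (horizontal axis) of the 10 member probes and of the tested genes of 7 other lists (rows, with their number), with filled points for an adjusted p under 0.05, red lines for medians and a grey band from the 5th to the 95th percentile of all tested probes. Filled points occur in the row of dividing cell markers alone. The member median of -0.32, which includes probes that met the filter through the controls alone, lies within the band.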

How the data were processed

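Total RNA (0.1 µg per sample) was labelled with Cy3 and hybridised to 7 arrays on 4 slides. The deposited scanner files hold spot intensity, which the authors extracted with Agilent Feature Extraction (10.7.3.1, and 11.5.1.1 for EXO-Post BSA replicate 3). The authors' series table holds quantile-normalised log2 values made with limma. It served as an alternative, joined by row order because it names no probes (rank correlations of 0.9936 to 0.9986 with the median signal, column medians of 6.65), and its background correction is not given in the sources used here.

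The processed signal was set to log2 and each array's 75th percentile over 43020 non-control spots was subtracted. Outlier spots were left out and spots of 1 probe averaged. A probe was tested if 75% or more of the arrays in either group had it well above background. The 2 groups were fitted over all 21589 tested probes with limma 3.58.1 in R 4.3.3, with Benjamini-Hochberg adjustment over all of them and 95% limma intervals, after a run on simulated data. Exact permutation tests covered the 35 splits of 4 and 3 arrays. The number of arrays limits the precision.

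The members and lists were chosen with earlier results of these data known. Every member probe was named. Other lists used per gene the tested probe with the highest mean. Unless said otherwise, genes named with fold changes came from those past the threshold, the 2 highest, the 2 lowest and 8 fixed neighbours. Not all of these are named. The labels call the samples biological replicates, and their numbers did not pair them. Alternatives changed background correction, scaling, probe filter, slide or replicate block, array weights, moderation, the test and each array. EXO-Post BSA replicate 3 has no mean signal, so normexp (offset 50, followed by quantile normalisation) and the values without background subtraction used the median signal throughout.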

Additional observations from a re-analysis of the deposited data

Results flagged for a closer look

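Among the 4 EXO-Post BSA arrays, 21 probes (the 20 member probes and Igf2) were examined for 1 array standing apart, and 3 had one. Chance alone sets about 5% of such groups apart. H19 A_55_P1961127 read 7.99 in EXO-Post BSA replicate 4 and 7.76 to 7.78 in the other controls, a narrow range in which the gap was 0.920 of the whole. Igf2 read -1.88 in the same replicate 4 and -1.60 to -1.56 in the others. Mest A_55_P2151868 read -3.99 in EXO-Post BSA replicate 2, where it was well above background, and -4.79 to -4.72 in the other controls.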

How the results depend on the processing

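No member probe passed the adjusted threshold under any of the 21 alternatives. Both Mest probes, both Peg3 probes, Ndn and Zim1 kept their direction wherever they could be fitted. H19 A_55_P1961127 was -0.20 and turned to 0.06 after normexp and quantile normalisation and to 0.06 in the authors' processed values, and ran from -0.37 to 0.08 with 1 array left out. H19 A_55_P1961125 turned to 0.07 without background subtraction. Plagl1 A_55_P2153251 turned to 0.04 with a slide block and ran from -0.58 to 0.10 with 1 array left out, and Plagl1 A_55_P1961965 turned to -0.03 with a replicate block and ran from -0.03 to 0.30. The cause was not tested. H19 A_55_P1961125, Peg3 A_55_P2163319 and Zim1 A_55_P1978716 have no value without some single arrays, when they failed the probe filter, and these and Plagl1 A_55_P2153251 have none under the filter on all arrays.

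Over all probes, 115 passed in the main setting (87.0% of them higher), 0 with no probe filter, 181 with slide as a random block, 173 with trended and robust moderation, 0 with a replicate block, 0 by the methods' t-test adjusted and 2108 by it unadjusted. With 1 array left out the count ran from 4 to 228, with 7 without EXO-Post Palm replicate 1, 4 without replicate 3 and 228 without replicate 2, and 61 to 69 without 1 control. The share of higher calls was 75.8% after normexp with quantile normalisation, 72.8% without background subtraction, 42.9% without EXO-Post Palm replicate 1 (3 of 7) and 47.2% by the unadjusted t-test. Of the other imprinted genes, 6 passed the methods' t-test unadjusted, and 0 to 1 passed with 1 array left out, Igf2 being the 1 without EXO-Post Palm replicate 2. Deviations from group means correlated at 0.12, -0.15 and -0.15 for replicate numbers 1 to 3, and not every array correlated best with its own number, so the replicate block pairs arrays by number alone. Of the 20 member probes, 10 were too dim to test, which limits what can be said of Meg3, Dlk1 and Grb10.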
